A study of Saccharomyces cerevisiae with 22 samples.

Results

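The comparison set ribosome footprints of the budding yeast strain EY0690 against those of BY4741, and its members were chosen by the strain and kind of library in the labels: 4 footprint libraries of EY0690 and 4 of BY4741, of 22 samples in the series. Each strain had 2 libraries from cells in synthetic complete medium with glucose and 2 from cells moved for 15 min to the same medium without glucose. All cultures grew at 30 °C and all received cycloheximide, which stalls elongating ribosomes, at 100 ug/ml for 1 min before harvest. BY4741 is a laboratory strain of the S288C background, and EY0690 is labelled as w303 in part of the growth texts, another laboratory background. The labels give no further alleles and do not say which libraries came from separate cultures, so p-values measure the spread between these libraries, which may be technical. The growth text of the EY0690 libraries numbered 1 names BY4741 alone, while their titles and strain labels say EY0690.

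Ribosome profiling digests the mRNA that ribosomes do not cover and sequences the protected pieces, so the count of footprints on a coding sequence follows both how much of its mRNA there is and how many ribosomes it carries. Laboratory yeast strains are known to differ in regulators of respiration and nutrient uptake and in the auxotrophic alleles they carry, and synthesis of the matching proteins is then set at different levels by transcription and by translation. PolyA RNA of the same strains and conditions, 8 other libraries, gives the mRNA side of each value below.

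Values per library are counts scaled to library depth (CPM) after TMM scaling, from reads downstream of the start region, and always stand in the order glucose library 1, glucose library 2, starved library 1, starved library 2. Log2 differences are EY0690 over BY4741 across both conditions, with the standard error (SE) of edgeR's quasi-likelihood test over 8 libraries. A gene passed at a Benjamini-Hochberg adjusted p under 0.05 over all 5018 genes tested. Differences are relative to the other mRNAs of a library and give no total protein synthesis per cell.

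The libraries differed in depth along with strain. Downstream counts ran from 1999970 to 8110916 in BY4741 and from 698310 to 1660505 in EY0690. Both BY4741 libraries numbered 2 stood apart, since across genes their log2 CPM had a correlation of 0.946 and 0.942 with polyA RNA of the same strain, condition and number, against 0.820 to 0.873 in the other 6, a description over genes that are not replicates. Glucose and starved libraries of the same strain and number also deviated together, with a correlation of 0.683 in BY4741 and 0.207 in EY0690. Each count below is therefore also given without the BY4741 libraries numbered 2, and from limma with an estimated correlation of 0.43 between libraries of the same strain and number, called the correlated fit here. The submitters' processing notes name 1 genome build, R64, which is that of S288C, for both strains.

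EY0690 and BY4741 differed at many genes. Over 5018 genes, 561 (11.2%) were called higher in EY0690 and 536 (10.7%) lower, 21.9% in all, and these percentages are the background for each group below. The difference was at least 1 on the log2 scale for 428 of the higher and 357 of the lower genes, and at least 2 for 109 and 50. The correlated fit called 305 higher (6.08%) and 97 lower (1.93%), 8.01% in all, and 399 of its calls were also calls of the edgeR fit in the same direction. Without the BY4741 libraries numbered 2 there were 528 and 502 calls, 715 of them shared with the edgeR fit on all 8 libraries. Leaving out 1 library moved the count by over 1.5 times for 6 of 8 libraries: to 530 without EY0690 glucose 1, 573 without EY0690 starved 1, 627 without BY4741 glucose 2, 643 without EY0690 glucose 2, 685 without EY0690 starved 2 and 1725 without BY4741 starved 1. Of 210 named genes 141 passed, and 87 of these passed with each of the 8 libraries left out in turn. Another 11 were tested in only 4 of these fits, passed in each, and fell under the filter of 10 counts in 4 libraries otherwise. Among them TRP1, SUL2, VEL1, LST7 and ANB1 met that filter through BY4741 alone, and were not tested with a BY4741 library left out. DAL80 and DAN4 met it through EY0690 alone, and were not tested with an EY0690 library left out. All of these met the filter only through the strain where they were high. SUE1, YHR033W and GIT1, also among the 11, met it through libraries of both strains. The genes called higher or lower below are among those 98 unless an exception is stated beside them. Of those 98, the correlated fit did not call AFT1, IMP4, IZH2, ANB1, DOM34, YBP1 and RPS28A (limma adjusted p from 0.0511 to 0.0809). Others of the 98 that it did not call are named as such where they are described. Among genes that lost their call with a library left out, it did not call PHO5 (limma adjusted p = 0.149), URA7 (0.185), LEU1 (0.117), OAC1 (0.0668), TAT2 (0.0805) and DIP5 (0.069), among others. Members of a list can also fall under the filter without the BY4741 libraries numbered 2, and the number tested there is given where it is lower. The median over all genes tested was -0.06, and -0.18 with library size alone in place of TMM.

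Auxotrophic marker genes, whose disabled alleles serve to select plasmids, separated the strains. W303 strains are known to carry disabling alleles of TRP1, HIS3 and CAN1, and BY4741 a partial deletion of HIS3. TRP1, an enzyme of tryptophan synthesis (YDR007W, chromosome IV, 461842 to 462516), had 42.7, 65.3, 24.1 and 76.8 CPM in BY4741 and 5.16, 0, 3.64 and 6.65 CPM in EY0690. No EY0690 library reached the lowest BY4741 library, and the log2 difference was -3.71 ± 0.55 (edgeR adjusted p = 0.0013). HIS3, an enzyme of histidine synthesis (YOR202W, chromosome XV, 721946 to 722608), had 142, 73.9, 71.7 and 63.6 CPM in BY4741 and 17.5, 14.3, 7.29 and 3.80 CPM in EY0690. Again all 4 EY0690 libraries lay below all 4 of BY4741, with a log2 difference of -3.10 ± 0.32 (edgeR adjusted p = 0.000151). The EY0690 libraries numbered 1, whose growth text names BY4741, were low for both genes like those numbered 2. The polyA differences were smaller, -1.90 for TRP1 and -1.02 for HIS3. The tested genes beside them on the chromosome did not pass: SOK1 next to TRP1 (0.73 ± 0.26) and MRM1 (-0.17 ± 0.32) and DED1 (-0.31 ± 0.46) next to HIS3.

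The arginine permease gene CAN1 had 177, 135, 186 and 103 CPM in BY4741 and 124, 46.8, 53.2 and 30.4 CPM in EY0690. Its groups overlapped through the EY0690 glucose 1 library. Its log2 difference of -1.30 ± 0.35 passed (edgeR adjusted p = 0.0226) but not when any of 4 libraries was left out (BY4741 glucose 1, EY0690 glucose 2, or either EY0690 starved library), with values from -1.35 to -1.06. In polyA RNA the CAN1 difference was 0.73 ± 0.20 the other way. The correlated fit did not call CAN1 (limma adjusted p = 0.0594). ADE2 (-0.42 ± 0.37) and LYS2 (-0.45 ± 0.41) did not pass, and LEU2, URA3 and MET17 were not analysed here. Over the markers, 3 of 5 tested passed as lower and none as higher (0 and 2 by the correlated fit and 0 and 3 without the BY4741 libraries numbered 2, where 4 were tested). The last 3 were HIS3, CAN1 and LYS2 (-1.04, edgeR adjusted p = 0.00501), since TRP1 was not tested there.

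Among 8 tested mating genes 3 passed as lower and 0 as higher (0 and 2 by the correlated fit and 1 and 3 without the BY4741 libraries numbered 2). MFA1, which encodes the a-factor pheromone of a-mating cells, had 67.8, 79.1, 59.3 and 54.1 CPM in BY4741 and 7.22, 14.3, 11.7 and 11.4 CPM in EY0690. The EY0690 values were all lower (log2 -2.53 ± 0.27, edgeR adjusted p = 0.000171). The second a-factor gene MFA2 was lower too (-1.78 ± 0.30). The a-agglutinin gene AGA2 passed at -0.91 ± 0.28 but lost its call without any of 5 libraries (EY0690 glucose 1, glucose 2 or starved 2, or BY4741 glucose 1 or 2). MFA1, MFA2 and AGA2 are short genes. With GC content and length as offsets AGA2 was at -0.22 (edgeR adjusted p = 0.587), MFA2 at -1.08 (0.0422) and MFA1 at -1.85 (0.00344). The correlated fit did not call AGA2 (limma adjusted p = 0.192). The alpha-factor receptor gene STE2 of a cells was read in all libraries, at 413, 639.7, 209.5 and 440.4 CPM in BY4741 and 290.0, 314, 171 and 298 CPM in EY0690, and did not pass (-0.64 ± 0.31, edgeR adjusted p = 0.155).

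**Figure D1:**
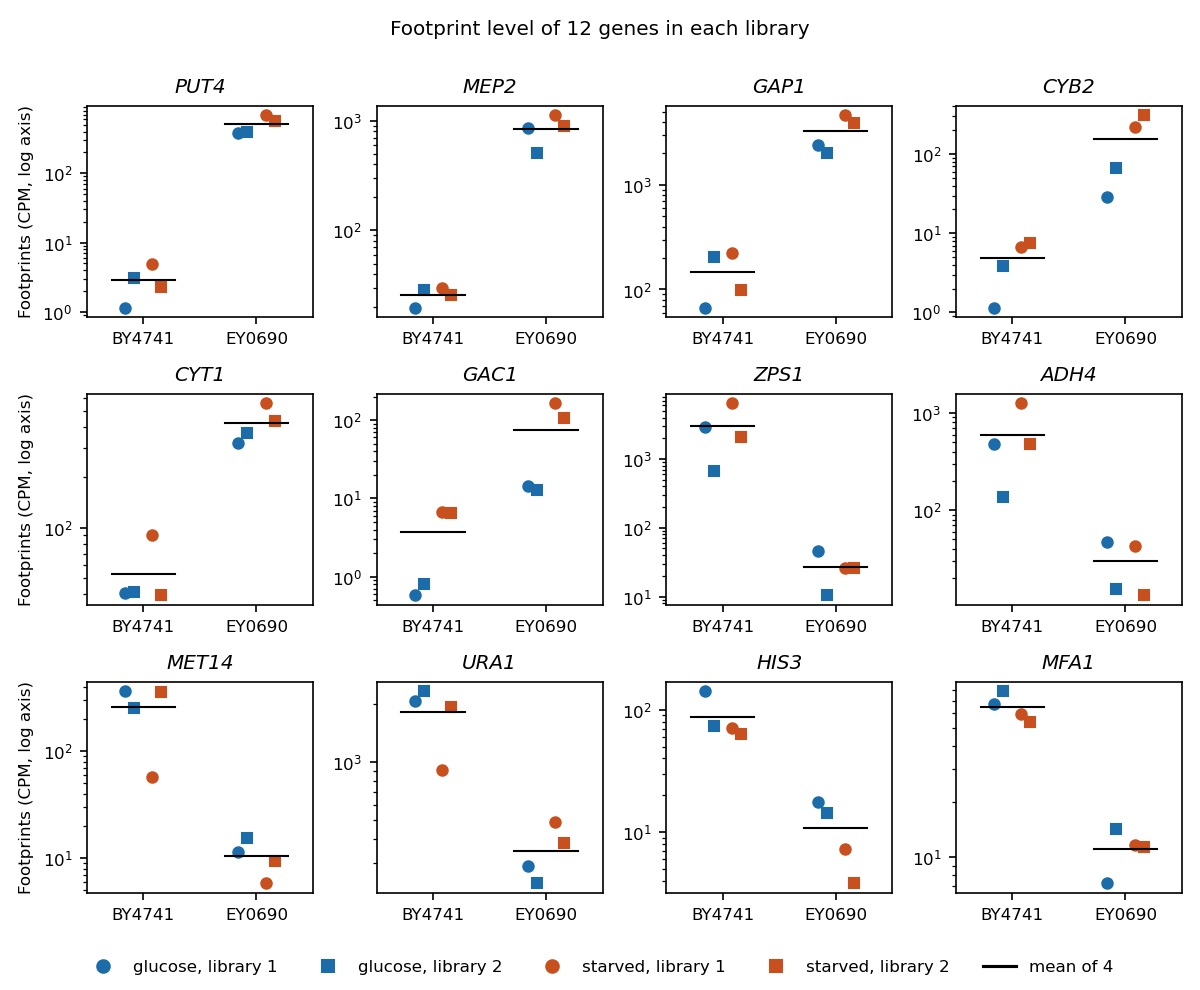
Footprint level (CPM, log axis) of 12 genes in the 8 libraries; circles are libraries numbered 1, squares those numbered 2, blue is glucose, orange is starved and the line is the mean of 4 libraries. In each panel the 4 EY0690 values lie on 1 side of the 4 BY4741 values: PUT4, for example, stayed under 5 CPM in BY4741 and was at 386 CPM or more in EY0690. Most panels show genes of the 12 furthest in each direction, which were picked only among genes without overlap, so their separation follows from the choice. Of all genes tested 20.4% had no overlap.

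Genes for the use of poor nitrogen sources were among the furthest higher in EY0690, PUT4 first of all 5018 genes. Yeast represses them while good nitrogen sources last, and the GATA factors Gln3, Gat1 and Dal80 control them through GATAAG elements. Of 20 tested members, 12 passed as higher and 1 as lower, 11 and 0 by the correlated fit and 10 and 0 without the BY4741 libraries numbered 2, where 14 were tested. The median log2 difference was 1.80 in footprints and 1.87 in polyA RNA. GATAAG on either strand stood in the 500 bases before the start codon of 15 of the 20 members, 10 of the 12 higher ones among them, and of 22.5% of the 5018 genes tested. The matches nearest the start codon of 4 higher genes follow, from the RefSeq R64 genome, read along the coding strand with the match in capitals (CTTATC is GATAAG on the other strand). A match is a description, not a shown binding site.
DAL80, chrXI:506661-506686, plus strand: cgatcctgggCTTATCtcgctgcatt
MEP2, chrXIV:357210-357235, plus strand: gaccctgtgcCTTATCaatgaagtat
GAP1, chrXI:514811-514836, plus strand: aattaaacatGATAAGcgcatagttg
GAT1, chrVI:95737-95762, plus strand: gataagataaGATAAGataacaaatc

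PUT4, the proline permease (YOR348C, chromosome XV, 986899 to 988782, 1 coding exon), had 1.15, 3.07, 4.94 and 2.29 CPM in BY4741 and 386, 389.6, 685 and 571 CPM in EY0690. Both conditions showed it, and no value of 1 strain came near the other (log2 7.48 ± 0.38, edgeR adjusted p = 8.77e-07). PUT1, the first enzyme of proline breakdown (YLR142W, chromosome XII, 425186 to 426616), had 5.77, 4.09, 50.1 and 17.4 CPM in BY4741 and 51.6, 57.1, 735 and 587 CPM in EY0690. Its EY0690 values passed every BY4741 value, narrowly in glucose against the starved BY4741 library 1, with a log2 difference of 3.96 ± 0.37 (edgeR adjusted p = 7.9e-05). GAP1, the general amino acid permease, had 67.2, 202, 225 and 98.2 CPM in BY4741 and 2431, 2014, 4619.5 and 3899 CPM in EY0690. The lowest EY0690 library was several times the highest of BY4741 (log2 4.38 ± 0.47, edgeR adjusted p = 0.000164).

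The ammonium permease genes showed the same direction. MEP2, of high affinity, had 19.9, 28.9, 29.7 and 25.97 CPM in BY4741 and 847, 508, 1113 and 885 CPM in EY0690. Its log2 difference was 4.98 ± 0.32 (edgeR adjusted p = 6.7e-06), and that of its paralog MEP1 was 2.61 ± 0.26. The regulators were higher too. GAT1, a GATA activator, had 34.0, 28.3, 47.6 and 23.4 CPM in BY4741 and 595, 329, 417 and 256.4 CPM in EY0690, a log2 difference of 3.59 ± 0.34. DAL80, a GATA repressor that is itself under nitrogen control, had 3 counts over the 4 BY4741 libraries and 82 over the 4 of EY0690, a ratio of 141 (95% exact interval 46.4 to 696) that covers counting error only. The urea permease gene DUR3, named here after its value was seen, was the 1 lower member, at -2.22 ± 0.50 (edgeR adjusted p = 0.00978). The correlated fit did not call it, and it was not followed with single libraries left out. The permeases for amino acids in general, a separate list of 13, had 3 higher and 0 lower (1 and 0 by the correlated fit and 2 and 0 without the BY4741 libraries numbered 2, where 12 were tested), led by AGP1, a broad amino acid permease, at 1.89 ± 0.27. TAT2, for tryptophan and tyrosine (0.78 ± 0.20), and DIP5, for glutamate and aspartate (0.96 ± 0.26), passed as higher too, but each lost its call without either of at least 2 EY0690 libraries and without BY4741 glucose 2, with values down to 0.68 and 0.89 where lost. With GC content and length as offsets TAT2 was at 0.42 (edgeR adjusted p = 0.0964).

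Most targets of Hap1 were higher in EY0690. Hap1 is a haem-responsive activator of genes of respiration and sterol synthesis, and S288C strains such as BY4741 are known to carry a transposon insertion in HAP1. Of 14 tested members including HAP1 itself, 11 passed as higher and 0 as lower, 9 and 0 by the correlated fit and 11 and 0 without the BY4741 libraries numbered 2, with a median of 1.55. CYB2, the lactate dehydrogenase of the mitochondrial intermembrane space (YML054C, chromosome XIII, 165533 to 167308), had 1.15, 3.88, 6.80 and 7.64 CPM in BY4741 and 28.9, 66.2, 220.2 and 309 CPM in EY0690. All EY0690 values were above all BY4741 values, and both strains had more after starvation (log2 4.65 ± 0.41, edgeR adjusted p = 6.37e-05). CYT1, cytochrome c1 of the bc1 complex (YOR065W, chromosome XV, 447439 to 448368), had 40.7, 41.2, 90.2 and 39.4 CPM in BY4741 and 319.9, 370.2, 555 and 437 CPM in EY0690. The EY0690 values again stood clear of BY4741, with a log2 difference of 3.01 ± 0.29 (edgeR adjusted p = 8.83e-05).

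CYC7, the minor isoform of cytochrome c, was higher by 3.29 ± 0.55, although the glucose values of EY0690 (7.22 and 16.9 CPM) overlapped the starved BY4741 library 1 (29.0 CPM). The cytosolic catalase gene CTT1 (2.47 ± 0.38), the sterol synthesis gene HMG1 (2.003 ± 0.27) and the bc1 subunit gene QCR2 (1.55 ± 0.25) passed as higher. Footprints on HAP1 itself did not pass (0.17 ± 0.30, edgeR adjusted p = 0.714), while its polyA RNA was lower in EY0690 (-1.16 ± 0.23, edgeR adjusted p = 0.00174); HAP1 was looked up after its value was seen. The Hap1 consensus was found before the start codon of none of the 14 members and of 0.339% of all genes tested, in the same 500-base windows on both strands. SUE1, whose protein is needed to degrade unstable cytochrome c per the table's annotation, also stood among the 12 genes furthest higher. Its footprints were at 0.577, 0.204, 4.94 and 2.29 CPM in BY4741 and 12.4, 5.20, 279 and 264 CPM in EY0690, a log2 difference of 6.04 ± 0.44 (edgeR adjusted p = 1.44e-05).

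Other genes of the mitochondrion followed in part. Of 33 nuclear genes of the respiratory chain and ATP synthase, a list that shares members with the one above, 11 passed as higher and 0 as lower, 7 and 0 by the correlated fit and 9 and 0 without the BY4741 libraries numbered 2, with a median of 0.45. The count was 23 higher with GC content and length as offsets. QCR6, a bc1 subunit, had 33.5, 28.8, 41.4 and 30.1 CPM in BY4741 and 198, 235, 249 and 163 CPM in EY0690, with no overlap (log2 2.67 ± 0.24, edgeR adjusted p = 6.37e-05). The Rieske protein gene RIP1 (2.13 ± 0.31) and the NADH dehydrogenase genes NDI1 (2.05 ± 0.25) and NDE1 (1.43 ± 0.28) were higher as well. In the tricarboxylic acid (TCA) cycle 3 of 18 passed as higher and 0 as lower (2 and 0 by the correlated fit and 3 and 0 without the BY4741 libraries numbered 2, where 17 were tested), and all 3 were subunits of succinate dehydrogenase. SDH1 was higher by 2.80 ± 0.41 and SDH2 by 1.497 ± 0.20, while SDH4 (0.98 ± 0.24) lost its call without EY0690 starved 1 (0.84) or without EY0690 glucose 2 (0.92). Mitochondrial ribosomal protein genes had 8 higher and 0 lower of 69 (4 and 0 by the correlated fit and 6 and 0 without the BY4741 libraries numbered 2), 4 higher with library size alone and 16 higher with GC content and length as offsets, and a median of 0.05. Their polyA RNA had 30 higher and 0 lower, with a median of 0.42, and the footprint median with the offsets was 0.42. MRP4, of the small subunit, was higher by 1.18 ± 0.25. Ergosterol synthesis had 7 higher and 0 lower of 25 (3 and 0 by the correlated fit and 5 and 0 without the BY4741 libraries numbered 2), among them the scaffold gene ERG28 (1.23 ± 0.20) and the mevalonate kinase gene ERG12 (1.19 ± 0.23).

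Many genes of reserve carbohydrates were higher in EY0690. Glycogen and trehalose are glucose stores that yeast fills under nutrient stress. Of 18 tested members 12 passed as higher and 0 as lower, 8 and 0 by the correlated fit and 13 and 0 without the BY4741 libraries numbered 2. Within single conditions 7 passed as higher in glucose and 4 in starved cells. The median was 1.36 in footprints and 0.79 in polyA RNA. GAC1, which directs a phosphatase to glycogen synthase (YOR178C, chromosome XV, 667860 to 670241), had 0.577, 0.818, 6.80 and 6.57 CPM in BY4741 and 14.4, 13.0, 164 and 106 CPM in EY0690. Glucose values of EY0690 stood above even the starved BY4741 values (log2 4.28 ± 0.29, edgeR adjusted p = 9.01e-06). Its polyA difference was 1.32 ± 0.32. Glycogen phosphorylase, GPH1, had 11.5, 11.4, 64.3 and 38.7 CPM in BY4741 and 109, 166, 459 and 282 CPM in EY0690, a log2 difference of 3.21 ± 0.30 (edgeR adjusted p = 7.9e-05) with no overlap. The glycogen synthase gene GSY1 (3.07 ± 0.43), the debranching enzyme gene GDB1 (2.82 ± 0.32), and the trehalose synthase subunit genes TSL1 (2.49 ± 0.35) and TPS2 (1.62 ± 0.27) were also higher.

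Part of the genes of hexose transport and phosphorylation were higher in EY0690 too. Of 13 tested hexose transporter and kinase genes 6 passed as higher and 0 as lower, 6 and 0 by the correlated fit and 6 and 0 without the BY4741 libraries numbered 2, where 12 were tested, with a median of 1.07. HXT4, a transporter for low glucose, had 34.6, 13.2, 81.6 and 85.2 CPM in BY4741 and 149, 123, 654 and 444 CPM in EY0690. All 4 EY0690 values were above all of BY4741 (log2 2.63 ± 0.31, edgeR adjusted p = 0.00035). Hexokinase HXK1 (2.82 ± 0.41), glucokinase GLK1 (2.16 ± 0.40; 106 bases shared with the frame YCL042W), and the transporter genes HXT1 (1.43 ± 0.29) and HXT5 (1.86 ± 0.42) passed too. HXT7 (3.13 ± 0.33) shares 96.0% of its 28-base words with other genes and its value is uncertain. In glycolysis and fermentation 2 of 20 passed as higher and 0 as lower (1 and 0 by the correlated fit and 2 and 3 without the BY4741 libraries numbered 2, where 19 were tested): the minor pyruvate kinase gene PYK2 (2.06 ± 0.31) and the alcohol dehydrogenase gene ADH1 (1.76 ± 0.50). ADH1, 19.5% of whose 28-base words recur, lost its call without any of 5 libraries (BY4741 glucose 2 or any EY0690 library), at 1.54 to 1.94. Of 3 tested galactose and maltose genes 1 passed as higher, the invertase gene SUC2 (1.44 ± 0.33), and 0 as lower (1 and 0 by the correlated fit and 3 and 0 without the BY4741 libraries numbered 2).

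Fewer than 1 in 2 chaperone genes were called higher. Of 27 tested heat shock and chaperone genes 11 passed as higher and 0 as lower, 5 and 0 by the correlated fit and 11 and 0 without the BY4741 libraries numbered 2, where 26 were tested, with a median of 0.95. For only 2 of the 27 did the 4 values of 1 strain not overlap the other 4, against 20.4% of all genes tested. That count pools glucose and starved values, so a change with starvation can make the strains overlap. In polyA RNA 20 of the 27 were higher and 0 lower. HSP42, a small heat shock protein gene, had 8.08, 15.4, 119 and 44.8 CPM in BY4741 and 91.8, 131, 1193 and 504 CPM in EY0690. The glucose values of EY0690 reached into the starved values of BY4741, and the log2 difference was 3.30 ± 0.41 (edgeR adjusted p = 0.00044). The genes of the mitochondrial co-chaperone MDJ1 (1.62 ± 0.27) and the Hsp90 co-chaperone AHA1 (1.56 ± 0.31) had no overlap. HSP26 (2.32 ± 0.51) and the Hsp110 gene SSE2 (1.45 ± 0.30) passed as higher.

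Phosphate genes split by library number. The phosphate regulon is switched on by the factor Pho4 when phosphate runs low. Of 15 tested members 6 passed as higher and 0 as lower, 3 and 0 by the correlated fit and 3 and 0 without the BY4741 libraries numbered 2, where 12 were tested. PHO84, the high-affinity phosphate transporter, had 279, 97.6, 195 and 113 CPM in BY4741 and 1474, 152, 1420.0 and 208 CPM in EY0690. Only the EY0690 libraries numbered 1 were high, and those numbered 2 lay within the range of BY4741. Its log2 difference of 2.26 ± 0.69 passed over 8 libraries, but not without EY0690 glucose 1 (1.49), EY0690 starved 1 (1.4965) or BY4741 glucose 2 (2.05), nor in the correlated fit (limma adjusted p = 0.2) or with GC content and length as offsets (edgeR adjusted p = 0.0522). An antisense RNA gene covers the whole of PHO84 on the other strand, and no source used here says whether counting used strand. The acid phosphatase gene PHO5 showed the same split, with 16.4, 7.97, 5.56 and 8.40 CPM in BY4741 and 119, 7.79, 166 and 10.4 CPM in EY0690. It lost its call without either EY0690 library numbered 1, at 2.41 and 1.82. PHM8, a phosphatase gene of the regulon, was high in all 4 EY0690 libraries, at 1.73, 5.93, 33.4 and 10.8 CPM in BY4741 and 46.4, 72.7, 192 and 146 CPM in EY0690 (log2 3.39 ± 0.42, edgeR adjusted p = 0.000461). GIT1, a permease for glycerophosphoinositol, was higher by 2.59 ± 0.52, and PHO81, an inhibitor of the cyclin-dependent kinase of the pathway, by 1.30 ± 0.28.

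Among cell surface mannoprotein genes 4 of 11 passed as higher and 0 as lower (3 and 0 by the correlated fit and 5 and 0 without the BY4741 libraries numbered 2). PIR3, a cell wall protein, had 1.15, 1.33, 10.5 and 5.19 CPM in BY4741 and 40.2, 20.8, 97.0 and 43.7 CPM in EY0690 (log2 3.82 ± 0.45, edgeR adjusted p = 0.000296), with no overlap, and shares 22.8% of its 28-base words with other genes. The stress-induced wall gene YGP1 was higher by 2.36 ± 0.37. DAN4, a wall protein of anaerobic cells, was among the 12 largest differences of the whole table, at 0.577, 0.92, 0 and 0.764 CPM in BY4741 and 40.2, 16.9, 24.8 and 12.3 CPM in EY0690. Its log2 difference was 5.05 ± 0.55 in footprints (edgeR adjusted p = 0.000206) and 1.05 ± 0.42 in polyA RNA, and 26.6% of its 28-base words recur elsewhere. DAN4 had 16 counts over the BY4741 libraries, and met the count filter only through EY0690, where it was high. YHR033W (4.84 ± 0.75), for which no role is given here, and PHM7 (3.97 ± 0.36), which phosphate is known to regulate, complete the 12 largest.

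In the other direction, genes of sulfate assimilation and methionine synthesis were lower in EY0690. These enzymes reduce sulfate to sulfide for methionine and cysteine, and the factors Met4, Cbf1, Met31 and Met32 turn them on when methionine is short. Of 22 tested members 13 passed as lower and 0 as higher, 0 and 5 by the correlated fit and 0 and 12 without the BY4741 libraries numbered 2, where 18 were tested, and the median was -1.80 in footprints and -1.55 in polyA RNA. Of the 22, 16 held CACGTG, the Cbf1 element, in the 500 bases before the start codon, 10 of the 13 lower ones among them, against 6.4% of all genes tested. AAACTGTGG, the element of Met31 and Met32, stood on either strand before 9 of the 22, 4 of them lower, against 0.857% of all. The Cbf1 matches nearest the start codon of 4 lower genes follow, from the RefSeq R64 genome along the coding strand with the match in capitals. SUL2 and MET3 each held 2 matches.
MET14, chrXI:439598-439623, minus strand: ccactaatttCACGTGatcaatatat
SUL2, chrXII:323226-323251, plus strand: cgtgtcaggtCACGTGaagagagaaa
MET3, chrX:455869-455894, plus strand: ccagaaaagtCACGTGtaattttgta
MET16, chrXVI:877795-877820, minus strand: atcatcatttCACGTGgctagtaaaa

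The pathway was lower from uptake to sulfide. SUL2, a sulfate permease (YLR092W, chromosome XII, 323544 to 326225), had 171, 42.0, 53.8 and 66.9 CPM in BY4741 and 7.22, 2.60, 2.92 and 4.75 CPM in EY0690. Every EY0690 value was below every BY4741 value (log2 -4.19 ± 0.51, edgeR adjusted p = 0.000397). MET3, ATP sulfurylase, the first enzyme, had 506, 187, 193 and 279.6 CPM in BY4741 and 13.4, 16.9, 35.0 and 43.7 CPM in EY0690, a log2 difference of -3.45 ± 0.45 (edgeR adjusted p = 0.000674). MET14, adenylylsulfate kinase (YKL001C, chromosome XI, 438777 to 439385), had 365, 253, 57.5 and 358 CPM in BY4741 and 11.4, 15.6, 5.83 and 9.50 CPM in EY0690. BY4741 starved 1 was the lowest of its strain but still above all EY0690 libraries, and the log2 difference was -4.66 ± 0.53 (edgeR adjusted p = 0.000283).

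MET16, which reduces the activated sulfate, was lower in EY0690 at a log2 of -3.24 ± 0.46, MET5, a sulfite reductase subunit listed in the table as ECM17, at -2.85 ± 0.43, and MET2, on the way to methionine, at -2.54 ± 0.43. MET1, which makes the sirohaem of sulfite reductase, stood at -3.10 ± 0.55. The correlated fit called MET14, SUL2, MET3 and MET5 but not MET16 (limma adjusted p = 0.0786), MET2 (0.0962) or MET1 (0.139).

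The zinc genes showed the single largest difference downward. Zap1 activates uptake and sparing of zinc when zinc is low. ZPS1, a surface protein gene induced by low zinc per the table's annotation (YOL154W, chromosome XV, 34658 to 35407), had 2963, 676, 6444 and 2096 CPM in BY4741 and 46.4, 10.4, 26.2 and 25.6 CPM in EY0690. The strains were far apart in all libraries, at a log2 difference of -6.68 ± 0.73 (edgeR adjusted p = 0.000199). ADH4, an alcohol dehydrogenase used when zinc is scarce (YGL256W, chromosome VII, 15159 to 16307), had 474, 137, 1256 and 479 CPM in BY4741 and 47.5, 15.6, 43.0 and 13.3 CPM in EY0690, a log2 difference of -4.10 ± 0.63 (edgeR adjusted p = 0.00148). VEL1 had 221 counts over the BY4741 libraries and 2 over those of EY0690, a ratio of 0.0465 (95% exact interval 0.0056 to 0.17) that covers counting error only. The membrane protein gene IZH2 was lower at -2.14 ± 0.40, while ZRG8 was higher by 2.17 ± 0.37.

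Over 13 tested zinc genes 4 passed as lower and 1 as higher, 1 and 3 by the correlated fit and 2 and 3 without the BY4741 libraries numbered 2, where 12 were tested, and the median was -0.35. By condition the footprint median was 0.28 in glucose and -1.53 in starved cells. In polyA RNA 8 of the 13 were lower and 1 higher, with a median of -0.79. ZAP1 itself did not pass (-0.26 ± 0.86), with 1.87 in glucose and -2.45 in starved cells. It was looked up after its values were seen, and the test of that change gave an unadjusted p of 0.000405, which did not pass over all genes. The Zap1 element stood before the start codon of ZRT1, the high-affinity zinc transporter, and ZRG17, neither of which passed, and of 0.179% of all genes tested. The ZRT1 match along the coding strand was as follows.
ZRT1, chrVII:20767-20792, plus strand: atatttgACCTTGAAGGTcatggaaa

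Pyrimidine synthesis had 3 lower and 0 higher of 11 tested (0 and 2 by the correlated fit and 0 and 5 without the BY4741 libraries numbered 2). URA1, dihydroorotate dehydrogenase (YKL216W, chromosome XI, 25215 to 26159), had 2069.5, 2328, 907 and 1920.4 CPM in BY4741 and 288, 235, 487 and 379 CPM in EY0690. All EY0690 values were below all BY4741 values (log2 -2.39 ± 0.39, edgeR adjusted p = 0.00199). URA4, dihydroorotase, was lower at -1.53 ± 0.25. The cytidine triphosphate synthase gene URA7 (-0.94 ± 0.30) passed as well but lost its call without any of 6 libraries, all but the starved BY4741 ones, with values from -1.09 to -0.75. Ppr1 activates this pathway, and its element stood before URA1 alone of the 11, and before 0.0399% of all genes tested.
URA1, chrXI:25027-25052, plus strand: cgatcTTCGGCATTCGCCGAAaattt

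Lists of amino acid synthesis differed in direction. For arginine and lysine 4 of 16 passed as higher and 1 as lower, 4 and 0 by the correlated fit and 4 and 2 without the BY4741 libraries numbered 2, where 15 were tested. CPA1, the small subunit of the carbamoyl phosphate synthase for arginine, whose translation is known to be repressed by arginine through an upstream reading frame, had 179, 139.7, 86.5 and 189.8 CPM in BY4741 and 665, 649, 750.1 and 729 CPM in EY0690. No library of EY0690 was near BY4741, and the log2 difference was 2.23 ± 0.30 (edgeR adjusted p = 0.000798) in footprints and 0.91 ± 0.18 in polyA RNA. ARG3, ornithine carbamoyltransferase (2.18 ± 0.35), ARG5,6 (1.68 ± 0.34) and ARG8 (1.44 ± 0.30), of ornithine synthesis, were higher. The saccharopine enzyme gene LYS9 passed as lower (-1.04 ± 0.26) but not without EY0690 glucose 1, glucose 2 or starved 1 (-1.23 to -0.85 over all libraries left out).

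Leucine and branched-chain synthesis had 4 higher and 0 lower of 12 (2 and 0 by the correlated fit and 4 and 0 without the BY4741 libraries numbered 2), led by the mitochondrial transaminase gene BAT1, with 480.2, 353, 405 and 212 CPM in BY4741 and 877, 839, 1381 and 1278 CPM in EY0690 (log2 1.58 ± 0.33, edgeR adjusted p = 0.00758). The other 3, ILV6, OAC1 and LEU1, ran from 1.04 ± 0.29 to 1.53 ± 0.41 and each lost its call when any of at least 3 EY0690 libraries was left out, LEU1 also with GC content and length as offsets (edgeR adjusted p = 0.0929). Histidine and tryptophan synthesis had 2 lower and 0 higher of 15 (0 and 0 by the correlated fit and 0 and 2 without the BY4741 libraries numbered 2), 0 with GC content and length as offsets, and purine synthesis 2 lower and 0 higher of 17 (0 and 0 by the correlated fit and 0 and 6 without the BY4741 libraries numbered 2). The 4 lower genes of these 2 lists (HIS5, ARO7, ADE13 and ADE1) ran from -1.49 ± 0.45 to -0.75 ± 0.23, and each lost its call when any of at least 3 libraries was left out. Without BY4741 starved 1 ADE13 and ADE1 kept their calls at smaller values, -0.80 and -0.82. HIS3 and TRP1 stand in the marker list instead.

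Ribosome assembly factor genes were lower in EY0690. They process ribosomal RNA and build both subunits in the nucleolus, and growing cells make them together with ribosomal proteins. Of 51 tested, 30 passed as lower and 0 as higher, 0 and 6 by the correlated fit and 0 and 28 without the BY4741 libraries numbered 2, and 48 of the 51 had a log2 difference below 0. The median was -0.81 over both conditions, -1.07 in glucose and -0.53 in starved cells, and -0.71 in polyA RNA. Within single conditions 14 of the 51 passed as lower in glucose and 1 in starved cells. NOP15, a large-subunit factor, had 210.0, 167, 160.1 and 159 CPM in BY4741 and 37.1, 58.4, 50.3 and 50.3 CPM in EY0690. The 4 EY0690 values lay well below the 4 of BY4741 (log2 -1.82 ± 0.22, edgeR adjusted p = 0.000425). The large-subunit factor genes RLP7 (-1.61 ± 0.25), RPF1 (-1.67 ± 0.28) and NSA2 (-1.46 ± 0.26) and the small-subunit factor genes IMP4 (-1.33 ± 0.24) and KRR1 (-1.56 ± 0.28) were lower too.

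Part of the cytosolic ribosomal protein genes were lower, and their number moved with the settings. Of 135 tested 54 passed as lower and 1 as higher, 0 and 7 by the correlated fit and 0 and 67 without the BY4741 libraries numbered 2, and 70 as lower with library size alone. Within single conditions 0 of the 135 passed as lower in glucose and 1 in starved cells. With GC content and length as offsets only 14 passed as lower, and the median went from -0.74 to -0.38. RPL38, of the large subunit, had 1644, 1573, 744 and 1254 CPM in BY4741 and 626, 705, 361 and 274 CPM in EY0690 (log2 -1.46 ± 0.29, edgeR adjusted p = 0.00543). The EY0690 values were all below those of BY4741, by less against the starved BY4741 library 1. RPS30B (-1.38 ± 0.25), RPL33B (-1.22 ± 0.24), RPS21A (-1.95 ± 0.38), RPL36A (-1.18 ± 0.25) and RPS28A (-1.31 ± 0.30) were lower. With the offsets RPL38 (-0.58, edgeR adjusted p = 0.0722) and RPS30B (-0.57, 0.0932) did not pass, and RPL33B (-0.68), RPL36A (-0.62) and RPS28A (-0.85) passed at smaller values. Most ribosomal proteins are encoded by paralog pairs, and 29.0% of the 28-base words of RPS30B and 20.4% of those of RPL36A are shared, so their values are uncertain.

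Of 35 translation factor genes 5 passed as lower and 0 as higher, 0 and 0 by the correlated fit and 0 and 12 without the BY4741 libraries numbered 2. SUI3, a subunit of initiation factor eIF2, had 596, 525, 289 and 489.8 CPM in BY4741 and 187, 201, 203 and 217 CPM in EY0690, and its log2 difference was -1.21 ± 0.27 (edgeR adjusted p = 0.00923) with no overlap, although the correlated fit did not call it (limma adjusted p = 0.0676). The other 4, TIF35, CDC33, TIF1 and SUI1, encode initiation factors and ran from -0.97 ± 0.24 to -0.76 ± 0.22; each lost its call without EY0690 glucose 1 or without EY0690 glucose 2, and 91% of the 28-base words of TIF1 recur in other genes. CDC33 (-0.56) and SUI1 (-0.08) did not pass with GC content and length as offsets. The proteasome had 2 lower and 0 higher of 33 (0 and 0 by the correlated fit and 0 and 2 without the BY4741 libraries numbered 2), the lid genes RPN5 (-1.04 ± 0.27) and RPN8 (-1.004 ± 0.25), neither of which passed without EY0690 glucose 1, EY0690 starved 1 or BY4741 glucose 2, nor RPN8 with the offsets (-0.50). Translation quality control and mRNA decay had 1 lower and 0 higher of 21 (0 and 0 by the correlated fit and 0 and 3 without the BY4741 libraries numbered 2): DOM34, which frees stalled ribosomes (-1.31 ± 0.27, and -0.77 with the offsets).

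Small groups were mixed. Of 18 iron genes 2 passed as higher and 4 as lower (1 and 2 by the correlated fit and 2 and 3 without the BY4741 libraries numbered 2, where 17 were tested). The haem oxygenase gene HMX1 ran from 9.52 to 34.0 CPM in BY4741 and from 55.7 to 526 CPM in EY0690 (log2 3.52 ± 0.33, edgeR adjusted p = 7.9e-05), with no overlap, and the iron regulator gene AFT1 was higher by 1.29 ± 0.29. The siderophore transporter gene ARN2 was lower at -2.19 ± 0.31 and the wall mannoprotein gene FIT3 at -2.07 ± 0.48. Hypoxic genes had 1 higher and 2 lower of 10 (0 and 0 by the correlated fit and 0 and 0 without the BY4741 libraries numbered 2, where 7 were tested), with ANB1, a hypoxic form of the elongation factor eIF5A, lower at -2.73 ± 0.61. The other lower gene, TIR1 (-2.77 ± 0.82), kept its call in only 2 of 8 fits with 1 library left out, at -3.66 to -1.68. Neither the correlated fit (limma adjusted p = 0.246) nor DESeq2 (DESeq2 adjusted p = 0.054) called TIR1, and 18.3% of its 28-base words recur. Both lower genes, ANB1 and TIR1, were not tested without the BY4741 libraries numbered 2. Copper and sodium handling had 1 higher and 1 lower of 6 (1 and 0 by the correlated fit and 1 and 1 without the BY4741 libraries numbered 2, where 5 were tested). The sodium pump gene ENA1 was the higher one (2.11 ± 0.51), lost its call without EY0690 starved 1 (1.54) and shares 90.0% of its 28-base words. Of 8 genes with known variants between laboratory strains 1 passed as higher and 1 as lower (0 and 0 by the correlated fit and 0 and 2 without the BY4741 libraries numbered 2), the latter YBP1, of the peroxide response (-1.40 ± 0.30). GPX2, a glutathione peroxidase gene, and LST7, needed to bring Gap1 to the cell surface per the table's annotation, were among the 12 genes furthest lower by the rule for named genes. GPX2 had 156, 133, 234 and 171 CPM in BY4741 and 5.16, 1.30, 86.7 and 9.50 CPM in EY0690. EY0690 starved 1 stood above the other 3 libraries of its strain but below all of BY4741, and the log2 difference of -3.12 ± 0.67 (edgeR adjusted p = 0.008) became -4.91 without it. LST7 was at -3.25 ± 0.74 (edgeR adjusted p = 0.0105), at -2.07 with GC content and length as offsets, and was not called by the correlated fit (limma adjusted p = 0.0873).

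**Figure D2:**
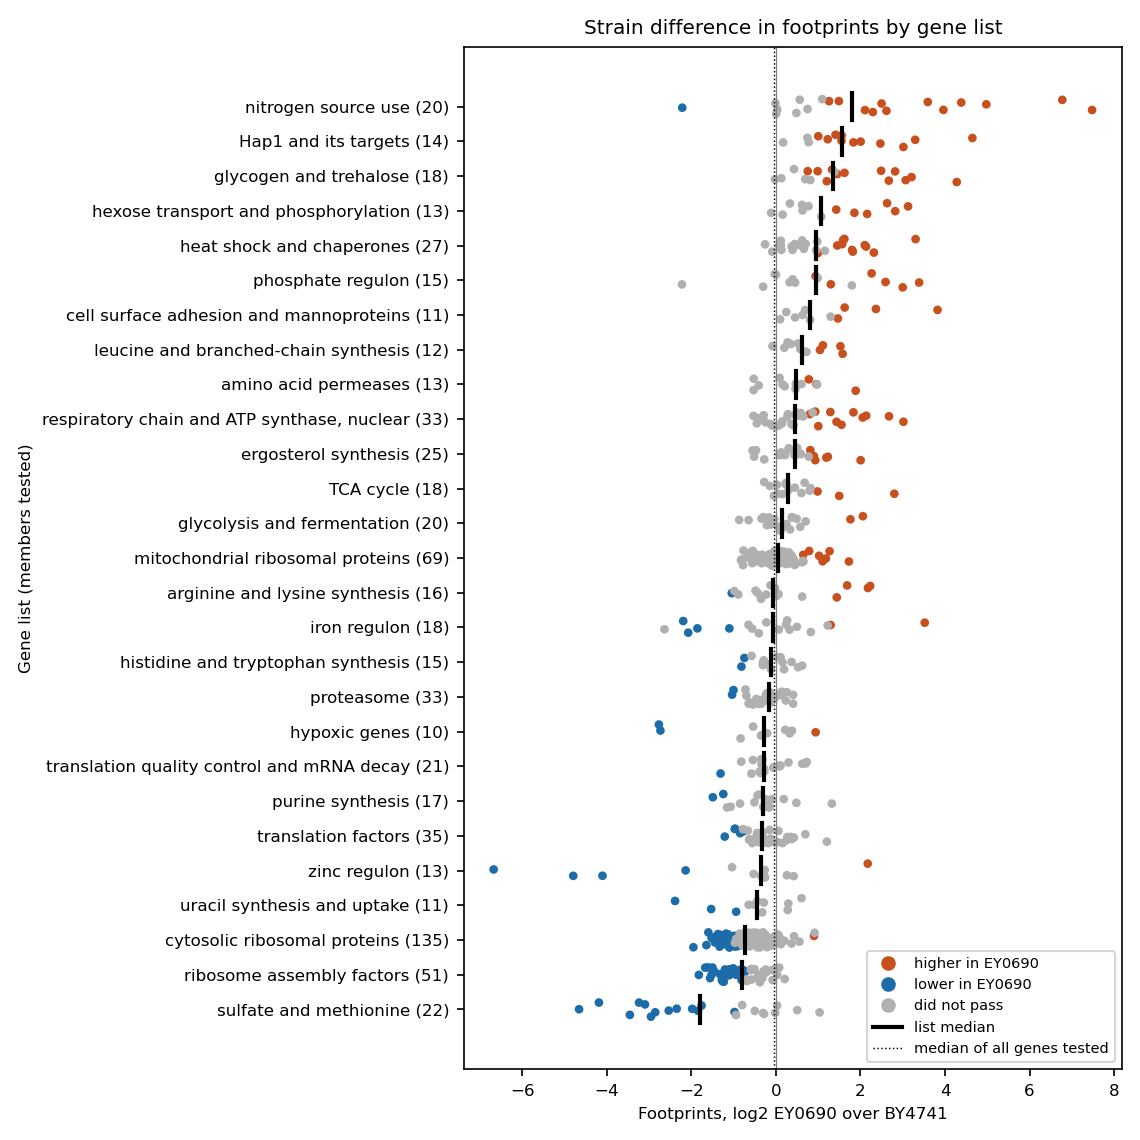
Log2 difference in footprints (EY0690 over BY4741) of each tested member of the lists with at least 10 tested members, whose number stands in brackets; orange and blue mark genes that passed as higher and lower, bars the list medians and the dotted line the median of all genes tested. The medians run from -1.80 for sulfate and methionine to 1.80 for nitrogen source use.

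Most footprint differences stood beside a polyA difference of the same sign. PolyA RNA gave calls for 37.2% of 5304 genes, 1071 higher (20.2%) and 900 lower (17.0%). Of the 561 genes higher in footprints 425 were also higher in polyA RNA, which is 75.8% of the footprint list and 41.8% of the polyA list tested in both. Of the 536 lower ones 353 were lower in polyA RNA, 65.9% and 40.4%. Only 1 gene passed in opposite directions, and the polyA log2 was above 0 for 556 of the 561 and below 0 for 516 of the 536.

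**Figure D3:**
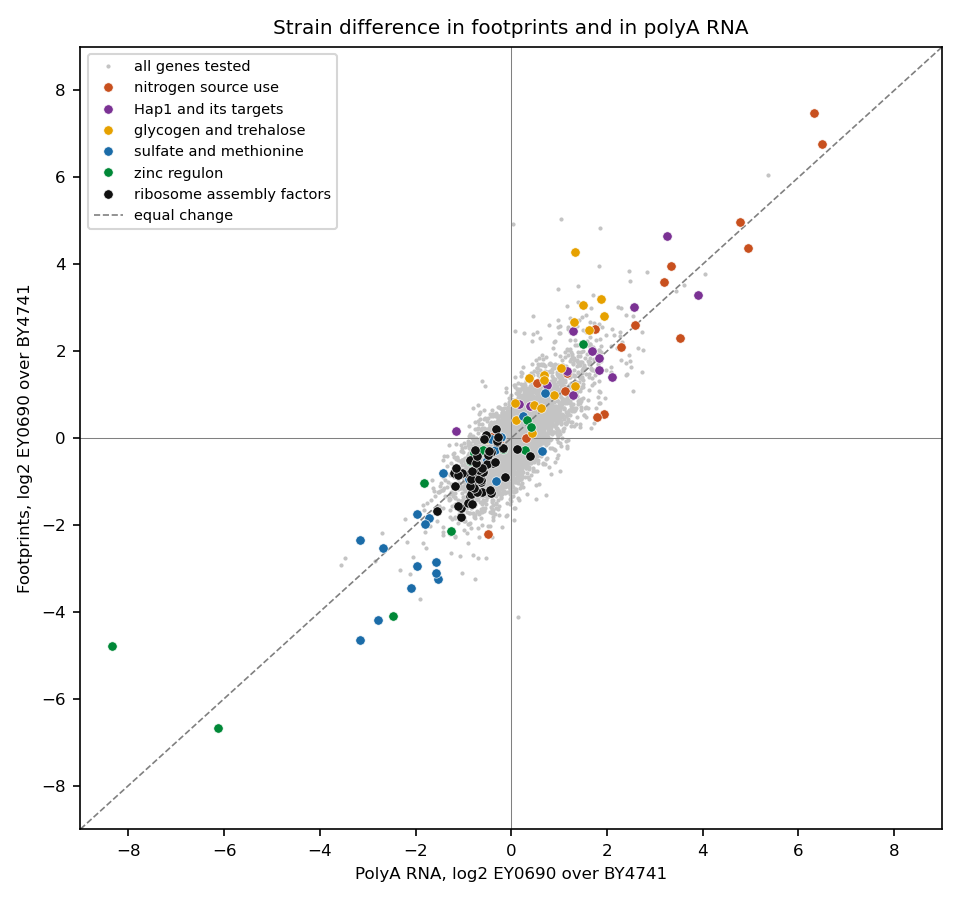
Log2 difference (EY0690 over BY4741) in footprints against that in polyA RNA for every gene tested in both (grey) and for 6 gene lists (colours); the dashed line marks equal change. GAC1 lies above it, at 4.28 in footprints and 1.32 in polyA RNA, and MEP2 close to it, at 4.98 and 4.79.

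The test of footprints per polyA RNA, in 1 model over 16 libraries, called 1 gene of 5018 (0.0199%). At an unadjusted p under 0.05 there were 683, and DESeq2 called 62. That gene was YJL047C-A, a reading frame of 135 bases with no name in the table (YJL047C-A, chromosome X, 349044 to 349178, minus strand, 1 coding exon). Its footprints were at 5.77, 9.61, 88.4 and 17.4 CPM in BY4741 and 692, 394, 379 and 1082 CPM in EY0690, while its polyA difference was 0.04 ± 0.26. The EY0690 libraries were all high, and BY4741 starved 1 was the highest of its strain. Its footprints per polyA RNA differed by 4.87 ± 0.77 on the log2 scale (edgeR adjusted p = 0.0458), a call lost without any of 9 of the 16 libraries (2 EY0690 footprint libraries, glucose 2 and starved 2, all 4 EY0690 polyA libraries, and 3 BY4741 polyA libraries), with values from 4.53 to 5.82 over all 16. The coding sequence, from the RefSeq R64 genome along the coding strand, is shown because 49 of its 135 bases, in capitals, also belong to the small nucleolar RNA gene SNR60 on the same strand. Reads of the 2 genes cannot be told apart there, so the footprint value of YJL047C-A is uncertain.
YJL047C-A, chrX:349044-349178, minus strand: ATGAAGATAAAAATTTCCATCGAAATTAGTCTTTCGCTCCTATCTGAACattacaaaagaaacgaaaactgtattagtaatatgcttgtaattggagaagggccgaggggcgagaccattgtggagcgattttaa

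Several named genes had large differences in footprints per polyA RNA that did not pass. GAC1 stood at 2.93 ± 0.52 (edgeR adjusted p = 0.063), DAN4 at 3.99 ± 0.72 (0.063), HIS3 at -2.08 ± 0.42 (0.0844), CAN1 at -2.04 ± 0.44 (0.0844) and CPA1 at 1.30 ± 0.33 (0.148). PUT4 had 1.16 ± 0.43 (0.275), MEP2 0.17 ± 0.39 (0.879) and ZPS1 -0.57 ± 0.83 (0.801), and for MEP2 and ZPS1 the value was smaller than its standard error.

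Footprint differences followed gene length more than polyA differences did. The 1255 genes with the shortest coding sequences (up to 786 bases) had a median log2 difference of -0.44, with 64 higher and 277 lower, and the 1254 with the longest (from 1965 bases) a median of 0.26, with 209 and 41. In polyA RNA the medians of the same genes were -0.07 and 0.10. Across genes the log2 difference correlated with log2 length at 0.289 in footprints and 0.0732 in polyA RNA, and with GC percent at 0.295 and 0.360, as descriptions over genes that are not replicates. Ribosomal protein genes are short, and the part of length in their difference was not tested beyond the offsets above.

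Within single conditions fewer genes passed. In glucose 7.65% of genes were called, 249 higher (4.96%) and 135 lower (2.69%), or 234 and 42 with library size alone, and in starved cells 2.33%, 82 higher (1.63%) and 35 lower (0.697%). The term for a strain difference that itself differs between conditions called 0 genes by edgeR, with 152 at an unadjusted p under 0.05 and 3 called by DESeq2. It called 28 without BY4741 starved 2 and 48 without both BY4741 libraries numbered 2. All 1097 genes called over both conditions had the same sign in each, which the joint test favours by its design. PUT4 differed by 7.36 in glucose and 7.61 in starved cells, CYB2 by 4.04 and 5.17, GAC1 by 4.15 and 4.34, MET14 by -4.53 and -4.79, and NOP15 by -1.99 and -1.67.

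**Figure D4:**
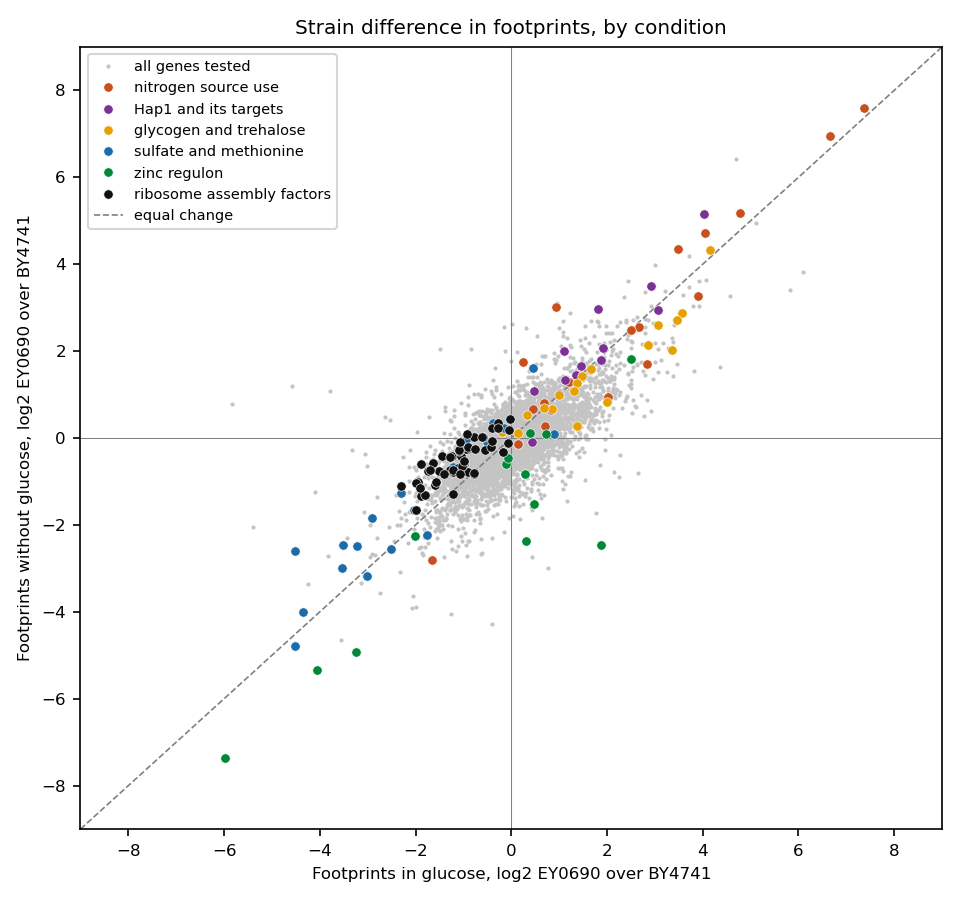
Log2 difference in footprints (EY0690 over BY4741) without glucose against that in glucose for all genes tested (grey) and 6 gene lists (colours); the dashed line marks equal difference. ZPS1 lies at -5.97 in glucose and -7.36 without, and PUT4 at 7.36 and 7.61.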

How the data were processed

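Ribosome footprint and polyA RNA libraries of 2 yeast strains were compared, 2 per strain and condition. The values are whole-number counts per gene as deposited by the authors, read downstream of the start region; no source used here says how the region was set, how reads with several matches were counted or whether strand was used. The submitters' processing notes name Bowtie 0.12.8 and the build R64. The table held 5381 genes, of which 5379 matched the RefSeq R64 annotation by systematic name; 60 blank cells were read as 0, and 8 other count columns were not used.

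Genes with at least 10 counts in at least 4 libraries were tested with edgeR 4.0.16 (R 4.3.3; TMM, quasi-likelihood test, condition and strain as terms), with Benjamini-Hochberg adjustment over all genes tested and a threshold of 0.05. The SE is the log2 difference divided by the square root of F. The strain by condition term, each condition, polyA RNA, and footprints per polyA RNA (1 interaction model) were fitted likewise. Alternatives used DESeq2 1.42.0, limma 3.58.1, other filters and scalings, GC and length offsets, and libraries left out. The procedure was tested on simulated data. Counting limits depth: EY0690 libraries hold fewer reads, and ratio intervals cover counting error only.

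Named genes were the 12 furthest in each direction among genes that passed and whose 4 values per strain did not overlap, all marker and mating genes, the neighbours of markers, and up to 6 members of each other list with the smallest p. The members and lists were chosen with earlier results of these data known. Motifs were searched in 500 bases before the start codon, on both strands. Figures were drawn with matplotlib 3.10.9.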

Additional observations from a re-analysis of the deposited data

How the results depend on the processing

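Over 210 named genes no alternative turned a direction that had passed. The strain difference called 1097 genes and stayed within 1.5 times of that under library size alone, DESeq2, no filter, thinning to equal depth, both gene regions summed, GC and length offsets, and without the BY4741 libraries numbered 2. It was 402 with limma and correlated libraries and 721 with conditions summed by strain and number, both chosen after seeing the data, and 530 to 1725 with 1 library left out. Strain by condition gave 3 calls by DESeq2, 48 without the BY4741 libraries numbered 2, and 0 to 28 with 1 left out. In glucose, against 384, DESeq2 gave 586, leaving out the BY4741 libraries numbered 2 gave 1249, and 1 library left out gave 8 to 1182. In starved cells, against 117, library size alone gave 59, DESeq2 290, leaving out the BY4741 libraries numbered 2 gave 354, and 1 library left out 8 to 1270. Footprints per polyA RNA gave 62 by DESeq2 and 0 to 43 with 1 library left out; polyA RNA gave 1556 to 2269. The cause was not tested.

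Replicate numbers did not pair the strains: deviations of same-numbered libraries correlated at 0.038 to 0.096 between strains. With the replicate block the strain difference called 1462 genes, glucose 867, starved cells 459, footprints per polyA RNA 7, polyA RNA 2119, and starved cells 259 with GC and length offsets as well. Of the named genes, 49 lost their call with correlated libraries, 15 with GC and length offsets and 14 without the BY4741 libraries numbered 2. Depth limits genes such as DAL80 and VEL1, read by counting ratios alone.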

Other observations

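IMD4, an IMP dehydrogenase gene of guanine nucleotide synthesis, has 2 coding exons with 1575 coding bases between 162194 and 164176 on chromosome XIII. The small nucleolar RNA gene SNR54 (163535 to 163620, 86 bases, same strand) lies within that span, which includes an intron. Its footprints stood at 586, 521, 430.2 and 523 CPM in BY4741 and 496, 627, 2395 and 3457 CPM in EY0690. The starved EY0690 libraries were the highest, and the strain difference of 1.32 ± 0.51 over both conditions did not pass (edgeR adjusted p = 0.0833). Within starved cells IMD4 passed as higher at 2.62 ± 0.44 (edgeR adjusted p = 0.016), against 0.02 ± 0.41 in glucose. Its strain by condition term had an unadjusted edgeR p of 0.00112, which did not pass over all genes. Of its 28-base words 12.2% recur. The overlap was taken against the whole span, and whether SNR54 falls in an exon or the intron was not tested. No source used here says whether intron reads were counted, so the part of SNR54 reads in these values is not known.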
